A study of Capra hircus with 20 samples.

Results

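miR-101 is a conserved miRNA that was measured here in the hypothalamus of the goat at 4 ages. Its members are the 2 arms of its hairpin, miR-101-3p (chi-miR-101-3p in the table) and miR-101-5p, out of 683 miRNAs. The arms were found by name. miR-101 itself was chosen by its RPM values at the 4 ages in these same libraries, where it is higher after birth, so its levels and age differences are given below as a description and carry no test. One of the 2 arms, miR-101-3p, reached the filter on low values that 414 of the 683 miRNAs passed. The study sequenced small RNA of Jining grey goats, which mature sexually at a young age. The goats were sampled at 1 day, 60 days, 120 days and 180 days after birth, with 5 animals per age and 1 library per animal, all in 1 breeding environment with food and water at will, per the design text. The labels give no treatment and no sex. They name the tissue as hypothalamus, a mixture of cell types, so that fewer cells of a type and less RNA per cell cannot be told apart.

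A miRNA hairpin is cut into a pair of strands, and the strand that is loaded into Argonaute, the guide, pairs with target mRNAs through its seed and lowers their output. In human cells miR-101-3p represses EZH2, the catalytic subunit of the Polycomb repressive complex, which methylates histones and silences genes. In the mouse hippocampus miR-101 limits the excitability of young neurons, in part by repressing the chloride importer NKCC1. In the hypothalamus of the rat, Polycomb proteins hold the kisspeptin gene silent before puberty, which makes repressors of EZH2 of interest at these ages. In the goat RefSeq annotation (assembly ARS1.2) the single MIR101 entry lies between JAK1, which encodes a kinase of cytokine signalling, and AK4, an adenylate kinase, followed by DNAJC6, LEPROT and LEPR, the leptin receptor gene.

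Values are RPM, the reads of a miRNA per 1000000 miRNA reads of its library. Libraries held 4017937 to 8324880 miRNA reads (median 6978196). The limit that a count of 0 allows, 3 reads, is 0.360 to 0.747 RPM. It and the binomial intervals of the 5p arm below describe counting error alone, because PCR duplicates cannot be told from separate molecules. Replicate 2 of day 1 stood apart, with the lowest depth and a median Spearman correlation with the other libraries of 0.873, against 0.918 for the next lowest. Without it the miR-101-3p differences from day 1 were 1.27 at day 60, 2.44 at day 120 and 2.54 at day 180 on the log2 scale (1.42, 2.58 and 2.68 with it). The markers of neurons (7 miRNAs) and of neuroendocrine tissue (miR-7 and miR-9, 4 arms) were detected at every age, with a summed level of 101107 to 448412 RPM for miR-7 and miR-9 at day 180.

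miR-101-3p was a moderately abundant miRNA at day 1 and one of the most abundant at day 180. At day 1 it measured 1065, 1029, 3198, 2178 and 1117 RPM in replicates 1 to 5. At day 60 the 5 libraries held 5832, 3400, 2132, 2991 and 9247 RPM. Day-1 and day-60 libraries overlapped: 3 of the 5 day-60 libraries lay above the highest day-1 library, and replicates 3 and 4 of day 60 lay below it. At day 120 the libraries held 15677, 7862, 6140, 8168 and 10664 RPM. At day 180 they held 5592, 11764, 7924, 7456 and 24156 RPM. Each of the 10 libraries of days 120 and 180 lay above all 5 day-1 libraries, while days 120 and 180 overlapped, and replicate 5 of day 180 was the highest of all 20.

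The order of the means followed age. The mean was 1717 ± 957 RPM at day 1 (SD, n = 5 at each age), 4720 ± 2879 RPM at day 60, 9702 ± 3710 RPM at day 120 and 11378 ± 7487 RPM at day 180. The medians were 1117, 3400, 8168 and 7924 RPM, so that the median of day 180 lay slightly below that of day 120. As a share of all miRNA reads, miR-101-3p averaged 0.172% at day 1, 0.472% at day 60, 0.970% at day 120 and 1.14% at day 180.

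On the log2(RPM + 1) scale miR-101-3p was 1.42 higher at day 60 than at day 1 (SE 0.46, from a fit of all 20 libraries), a 2.67-fold difference. It was 2.58 higher at day 120 than at day 1 and 2.68 higher at day 180 than at day 1 (SE 0.46 each), or 5.99-fold and 6.43-fold; these 3 differences share the day-1 libraries. Of the 2.68 by day 180, 52.9% was reached by day 60 and 96.2% by day 120. Between neighbouring ages, day 120 lay 1.16 above day 60 (SE 0.46), a 2.24-fold difference. As for single libraries, 4 of the 5 of day 60 lay below every day-120 library, and replicate 5 of day 60, at 9247 RPM, lay inside the day-120 range. Day 180 lay 0.10 above day 120 (SE 0.46), a 1.07-fold difference that was smaller than its SE, and their libraries overlapped. Without replicate 5 of day 180 this last difference was -0.22, and without replicate 3 of day 120 it was -0.04.

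**Figure D1:**
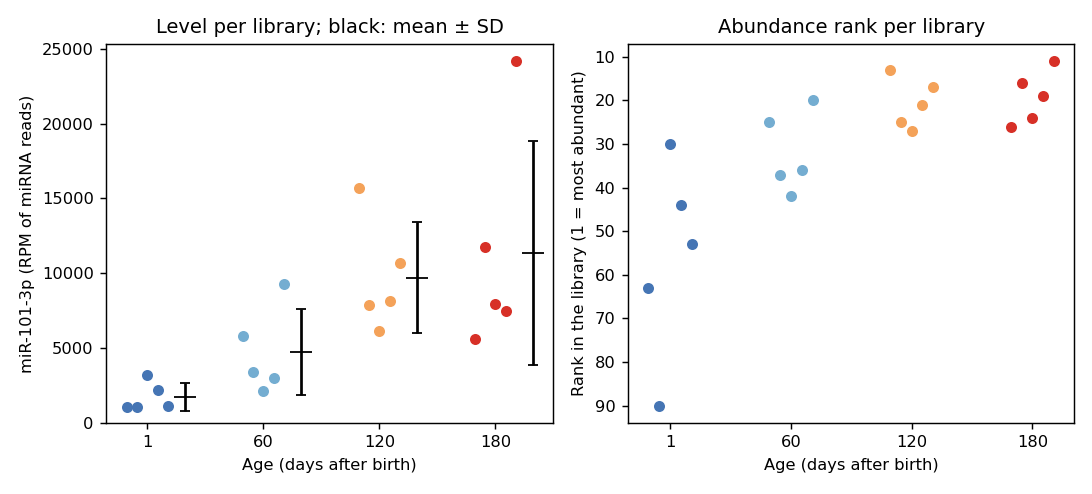
miR-101-3p in each of the 20 libraries, by age in days as equally spaced categories. Left, level in RPM with the mean ± SD of the 5 libraries in black; right, rank by abundance within the library on an inverted axis. The day-1 libraries lie between 1029 and 3198 RPM, and the libraries of days 120 and 180 start at 5592 RPM.

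The rank of miR-101-3p within each library does not depend on how libraries are scaled. At day 1 its rank among the 683 miRNAs was 63, 90, 30, 44 and 53 in replicates 1 to 5, and at day 60 it was 25, 37, 42, 36 and 20. At day 120 the ranks were 13, 25, 27, 21 and 17, and at day 180 they were 26, 16, 24, 19 and 11. Every library of days 120 and 180 thus ranked miR-101-3p higher than every day-1 library did, and rank 90, the lowest, was in the day-1 library that stood apart. By mean level it was at rank 53 at day 1, next to miR-145-5p of smooth muscle (1802 RPM) above and miR-382-5p of the DLK1-DIO3 imprinted cluster (1680 RPM) below. At day 60 it was at rank 28, between let-7e-5p (5865 RPM) and miR-30c-5p (4535 RPM). At day 120 it was at rank 21, between miR-99b-5p (9753 RPM) and miR-21-5p (9485 RPM). At day 180 it was at rank 15, between miR-125b-5p (13208 RPM) and miR-23b-3p (11059 RPM).

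Among the 414 miRNAs tested the difference of miR-101-3p from day 1 was in position 13 from the top at day 60 and in position 1 at days 120 and 180, a pattern for which it was chosen. Libraries that did not overlap with the day-1 libraries and lay higher were found for 0.725% of miRNAs at day 60, 3.86% at day 120 and 0.725% at day 180, and miR-101-3p was among those of days 120 and 180. The median of all miRNAs itself moved, to -0.12 at day 120 and -0.25 at day 180 relative to day 1, and relative to that median miR-101-3p lay 2.70 and 2.93 higher. With libraries scaled by the median of ratios, the means were 1732 ± 1084 at day 1, 4433 ± 1945 at day 60, 10064 ± 5857 at day 120 and 12554 ± 8718 at day 180.

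Animals of 1 age differed widely. The highest library held 3.11 times the lowest at day 1, 4.34 times at day 60, 2.55 times at day 120 and 4.32 times at day 180. The coefficient of variation was 55.7% at day 1, 61.0% at day 60, 38.2% at day 120 and 65.8% at day 180. Single libraries carried much of this: without replicate 5 of day 180 the day-180 values were 2.10 times and 31.7%, without replicate 1 of day 120 the coefficient at day 120 was 22.7%, and without replicate 5 of day 60 the highest day-60 library held 2.74 times the lowest. The counting error was small beside this: miR-101-3p had 4134 to 194381 reads per library, which gives a counting coefficient of variation of at most 1.56%. For comparison, miRNAs with a mean of at least 1000 RPM had a median coefficient of variation of 69.4% at day 1 (75 miRNAs), 44.4% at day 60 (68), 35.9% at day 120 (65) and 46.3% at day 180 (64).

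The other arm of the hairpin was almost absent. miR-101-5p, the passenger strand, had 26 reads in all 20 libraries, against 1001256 reads of miR-101-3p, or 38510 reads of the 3p arm for each read of the 5p arm. It had at least 1 read in 14 libraries and at most 4 reads in any, which was replicate 3 of day 1 at 0.561 RPM, so that 19 of the 20 libraries were at or under the floor of 3 reads. Summed by age, miR-101-5p had 5 reads at day 1, 6 at day 60, 5 at day 120 and 10 at day 180.

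The 5p arm made up 0.00805% of the miR-101 reads at day 1 (exact 95% binomial interval 0.00261% to 0.0188%), 0.00411% at day 60 (0.00151% to 0.00894%), 0.00135% at day 120 (0.000437% to 0.00314%) and 0.00237% at day 180 (0.00114% to 0.00436%). The intervals of neighbouring ages overlapped, as did those of days 1 and 180 and, narrowly, of days 1 and 120. Overlap of intervals is no test of a difference. The share also depends on the 3p reads, which rose with age, so it does not give the 5p level. With 5 to 10 reads of the 5p arm per age, a change of its level was not tested. Over all libraries the share was 0.00260%. Among 151 known miRNAs with both arms listed, the rarer arm had a median share of 2.78%, and only miR-21 (0.00111%) and let-7g (0.00237%) had a smaller share than miR-101. The sum over libraries is not free of the rise for which miR-101 was chosen. Days 120 and 180 gave 371314 and 421724 of the 3p reads, against 62141 at day 1, so they weigh most in the pooled share. At day 1 alone the share was larger, 0.00805%, and the position of miR-101 at single ages was not computed. The lowest sum of any row over the 20 libraries was 1.01 RPM, so arms rarer than that are not among those compared.

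**Figure D2:**
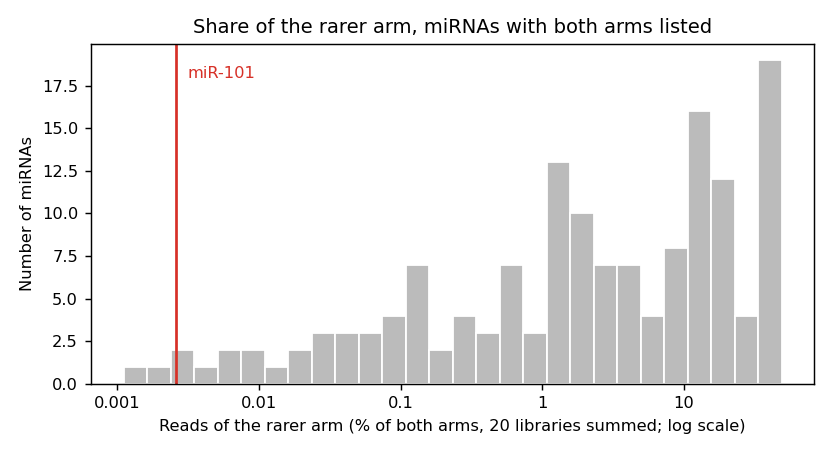
Share of reads of the rarer arm, in percent of both arms on a log axis, for 151 known miRNAs with both arms listed, summed over 20 libraries; bars count miRNAs. The line marks miR-101 at 0.00260%, near the low end, against a median of 2.78%.

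Other miRNAs can reach the same targets. miR-144-3p, a miRNA of red blood cells whose seed largely matches that of miR-101-3p in human and mouse, was close to the floor. It measured 1.06, 3.48, 2.24, 0 and 0 RPM at day 1, and 0.468, 0.320, 0.689, 0.160 and 1.09 RPM at day 60. It measured 0.122, 1.56, 0.449, 0 and 0 RPM at day 120, and 0.143, 0.286, 0.354, 0 and 0.373 RPM at day 180. Its highest level, 3.48 RPM in the day-1 library that stood apart, was far under the lowest level of miR-101-3p, 1029 RPM, in the same library. miR-144-5p averaged 8.96 ± 6.38 RPM at day 1, 5.39 ± 3.52 at day 60, 6.22 ± 3.82 at day 120 and 3.82 ± 1.62 at day 180 (SD, n = 5). Neither arm of miR-144 was called against day 1 at any age by limma. Of all 414 miRNAs limma called 3.86%, 3.38% and 3.38% at the later ages, so the absence of a call is no result about either arm.

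Further miRNAs are reported to repress EZH2 in human or mouse cells, and 9 of them were in the table, all tested: miR-26a-5p, miR-26b-5p, miR-124a, miR-137, miR-214-3p, let-7a-5p, let-7b-5p, let-7c-5p and miR-98-5p. Against day 1, 1 of 9 was called higher at day 60, and 0 were called at days 120 and 180; limma called 3.86% of all 414 miRNAs in either direction at day 60 (0.725% higher), 3.38% at day 120 (1.45% higher) and 3.38% at day 180 (0.725% higher). Of the calls over all miRNAs, 18.8% (3 of 16) were upward at day 60, against 30.0% with median-of-ratios and 35.3% with quantile scaling. The upward share was 42.9% (6 of 14) at day 120, against 36.1% and 48.7%, and 21.4% (3 of 14) at day 180, against 30.4% and 48.0%. The call was let-7c-5p, at 17012 ± 10206 RPM at day 60 and 5393 ± 1125 RPM at day 1 (SD, n = 5; log2 difference 1.46, SE 0.42, limma adjusted p = 0.0494, in a range of 0.00262 to 0.164 over the alternatives). The median log2 difference of the 9 was 0.20 at day 60, 0.63 at day 120 and 0.52 at day 180, beside -0.04, -0.12 and -0.25 over all miRNAs, and 6, 7 and 6 of the 9 lay above 0. With 1 library left out the median ran from 0.04 (without replicate 1 of day 60) to 0.41 (without replicate 4 of day 60) at day 60, and from 0.25 (without replicate 3 of day 180) to 0.58 at day 180. Without replicate 5 of day 60 the day-60 median was 0.07; it was 0.37 over the members that pass a filter of 10 RPM and 0.31 with median-of-ratios scaling.

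Of these 9, miR-26a-5p is known to repress EZH2 in differentiating muscle cells of the mouse. It averaged 36836 ± 6833 RPM at day 1, 44526 ± 17451 at day 60, 56543 ± 8008 at day 120 and 58660 ± 12379 at day 180, and was not called (log2 difference of day 180 from day 1 0.67, SE 0.31, limma adjusted p = 0.215). Its r with miR-101-3p was 0.73 over the 20 libraries, at position 7 of the 294 miRNAs compared. Of the summed RPM of these 9 miRNAs and miR-101-3p itself, miR-101-3p made up 2.16% ± 1.40 at day 1 (SD, n = 5) and 3.39% ± 2.74 at day 60. It made up 7.59% ± 4.77 at day 120 and 8.27% ± 5.47 at day 180. miR-101-3p was chosen for its rise, so the rise of this share follows in part from that choice and is no separate support. Within ages let-7c-5p and let-7a-5p varied the other way: let-7c-5p had the lowest r with miR-101-3p of all 294 miRNAs once age means were taken out (-0.82), and let-7a-5p had -0.73. The ages overlapped in this share: the highest day-1 library held 4.27%, and the lowest of day 180 held 3.44%. The highest shares, 15.4% and 17.3%, were in replicate 1 of day 120 and replicate 5 of day 180.

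The miRNAs whose pattern was most like that of miR-101-3p were found by Pearson's r on log2(RPM + 1) over the 20 libraries, among 294 known miRNAs with at least 10 RPM in the mean of 1 age. They were chosen for this r, so it is a description and has no p. The median r was -0.08, and the quartiles were -0.35 and 0.21. The 5 highest were miR-340-5p (r 0.88, Spearman's rho 0.89), miR-3955-3p (0.86, rho 0.78), miR-374a-5p (0.81, rho 0.77), miR-29b-3p (0.77, rho 0.72), which represses DNA methyltransferases and collagens, and miR-148b-5p (0.76, rho 0.75). The next, miR-374a-3p, had r 0.75. Without replicates 1 and 2 of day 1, the libraries farthest from the median of miR-101-3p, r was 0.85 for miR-340-5p, 0.81 for miR-3955-3p, 0.75 for miR-374a-5p, 0.71 for miR-29b-3p and 0.62 for miR-148b-5p.

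miR-340-5p followed miR-101-3p most closely. It held 628, 369, 1095, 783 and 537 RPM at day 1, and 1311, 1151, 862, 584 and 2444 RPM at day 60. At day 120 it held 3146, 1159, 1686, 1443 and 2126 RPM, and at day 180 1179, 1704, 1086, 936 and 2150 RPM. At every age the library highest in miR-340-5p was the one highest in miR-101-3p. In all, 19 of 20 libraries lay on the same side of their age mean for both miRNAs. miR-340-5p was called higher at day 120 than at day 1 (log2 difference 1.49, SE 0.42, limma adjusted p = 0.0451, in a range of 0.0113 to 0.13 over the alternatives), and its call held in 7 of 20 fits with 1 library left out.

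Between days 120 and 180 the changes were small. All 5 had a lower mean at day 180 than at day 120, and miR-101-3p had a higher one, which rested on 1 library: without replicate 5 of day 180 its day-180 mean was 8184 RPM, against 9702 RPM at day 120, and its log2 difference was -0.22. Their means at day 180 and day 120 were 1411 ± 504 and 1912 ± 776 RPM for miR-340-5p, 19.8 ± 9.73 and 24.3 ± 7.77 for miR-3955-3p, and 200 ± 86.1 and 256 ± 52.1 for miR-374a-5p (SD, n = 5). miR-29b-3p averaged 111 ± 62.1 and 133 ± 33.9 RPM, and miR-148b-5p 38.0 ± 2.94 and 41.1 ± 10.1 RPM, at days 180 and 120. On the log2 scale these differences lay between -0.46 (SE 0.55) for miR-374a-5p and -0.07 (SE 0.39) for miR-148b-5p (0.08 relative to the median of all miRNAs), and whether they differ from that of miR-101-3p was not tested. Against day 1, 3 of the 5 were called higher at day 120 (miR-340-5p, miR-3955-3p and miR-374a-5p), 1 at day 180 (miR-3955-3p) and 0 at day 60. Over all miRNAs limma called 1.45%, 0.725% and 0.725% higher at days 120, 180 and 60. With 1 library left out, the day-120 calls of miR-340-5p and miR-374a-5p held in 7 and 9 of 20 fits. The 5 were picked for resembling a miRNA that rises, so these counts are no separate support.

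The 5 lowest values of r belonged to miR-130b-5p (-0.82, rho -0.78), miR-211 (-0.75, rho -0.75), miR-99a-5p (-0.72, rho -0.76), miR-363-3p (-0.68, rho -0.54) and miR-1306-5p (-0.63, rho -0.61). miR-99a-5p is transcribed with let-7c, and miR-363-3p belongs to a paralog of the miR-17-92 cluster. miR-130b-5p averaged 153 ± 86.3 RPM at day 1, 142 ± 83.7 at day 60, 54.8 ± 22.1 at day 120 and 43.9 ± 19.7 at day 180 (SD, n = 5). Without replicates 1 and 2 of day 1, r was -0.75 for miR-130b-5p, -0.75 for miR-211, -0.67 for miR-99a-5p, -0.52 for miR-363-3p and -0.40 for miR-1306-5p. Of these, miR-363-3p was called lower than at day 1 at all 3 later ages (log2 differences -1.76, -1.80 and -2.53, SE 0.42 each, limma adjusted p = 0.0188, 0.015 and 0.000465); limma called 3.14%, 1.93% and 2.66% of all miRNAs lower. Its r within ages was 0.22, so that its low r lay in the age means. It was picked for a low r with a miRNA that rises, so these calls are no separate support.

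**Figure D3:**
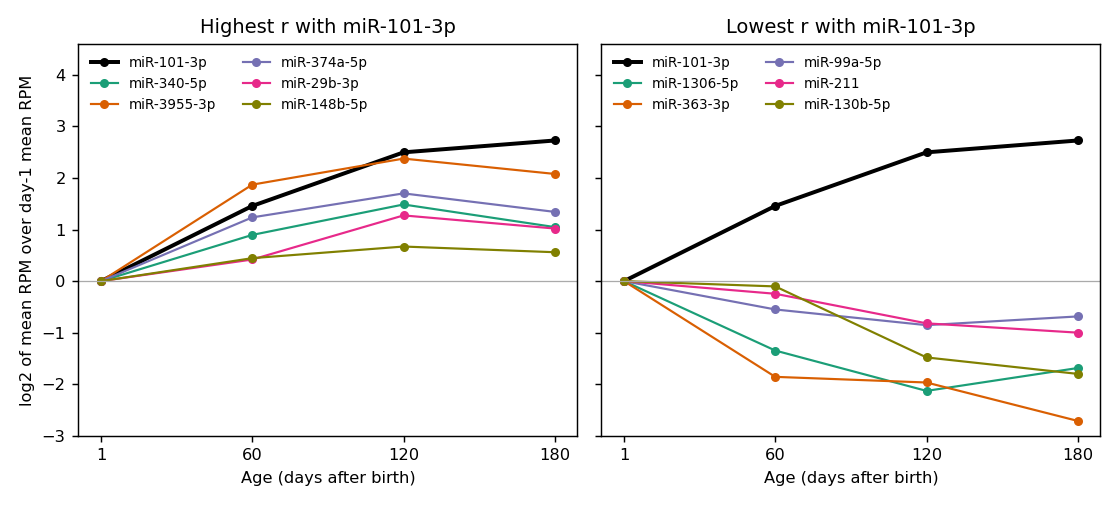
log2 of the mean RPM over the day-1 mean, by age in days as equally spaced categories, for miR-101-3p (black) with the 5 miRNAs of highest r (left) and the 5 of lowest r (right); each point is a mean of 5 libraries. On the left the 5 coloured lines turn down between days 120 and 180; the black line goes up, which rests on replicate 5 of day 180 (log2 difference -0.22 without it).

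Taking out the age means separates likeness between animals of 1 age from a shared change with age. On these deviations the highest r with miR-101-3p were those of miR-340-5p (0.85), miR-136-3p of the DLK1-DIO3 cluster (0.79), miR-542-3p (0.79), miR-9-5p, the neural miRNA that was the most abundant in the table (0.78), and miR-218, a neuronal miRNA (0.75). Over the 294 miRNAs the median of this r was 0.06, and the range ran from -0.82 to 0.85. For each of these 5 miRNAs r was above 0 within every one of the 4 ages. miR-340-5p had 0.89 at day 1, 0.86 at day 60, 0.81 at day 120 and 0.88 at day 180, each over 5 libraries. Only miR-340-5p was among the 5 highest both with and without the age means.

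miR-9-5p and miR-218 varied with miR-101-3p between animals without sharing its rise. miR-9-5p averaged 224857 ± 78261 RPM at day 1, 141362 ± 68036 at day 60, 195568 ± 24328 at day 120 and 137173 ± 48175 at day 180 (SD, n = 5), and its r with the age means left in was 0.12. At day 60, miR-9-5p held 174177, 155132, 62610, 84885 and 230007 RPM in replicates 1 to 5, so that replicate 5 was highest and replicate 3 lowest, as for miR-101-3p. miR-218 averaged 2012 ± 2069, 822 ± 405, 1174 ± 1133 and 935 ± 569 RPM at the 4 ages, with an r of 0.18. RPM values of a library share its total, and miR-9-5p takes a large part of it, so that r between RPM values is not free of that total. Depth also moved with miR-101-3p: within ages r with log2 depth was 0.44, and its part in the likeness was not tested.

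**Figure D4:**
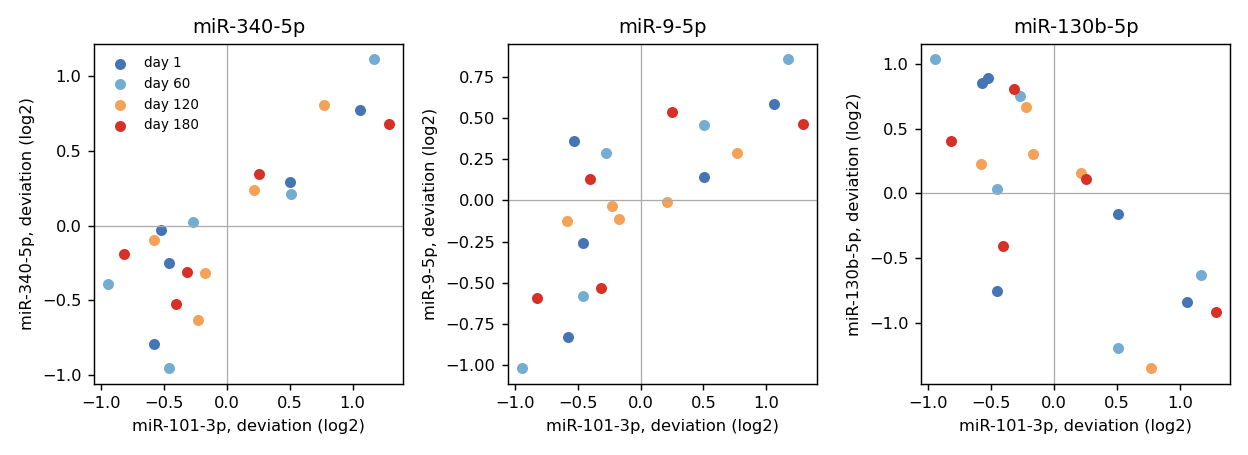
Deviation of each of the 20 libraries from the mean of its age on the log2(RPM + 1) scale, with miR-101-3p on the x axes and miR-340-5p, miR-9-5p and miR-130b-5p on the y axes; colours give the age. The r values are 0.85, 0.78 and -0.73, and for miR-340-5p 19 of 20 points lie on the same side of 0 on both axes.

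The level of miR-101-3p was also set against the summed levels of markers of 11 tissues and cell types. Planned markers miR-375 (pituitary), miR-142 (immune cells), miR-486 (erythroid), miR-448 (choroid plexus) and miR-132, miR-138 and miR-212 (neurons) are not in these sums. The log2 ratio of miR-101-3p to the sums was higher at day 180 than at day 1 for all 11 lists, by 1.74 (oligodendrocytes) to 3.40 (pituitary and epithelium). At day 120 it was higher than at day 1 by 1.22 (muscle) to 2.77 (neuroendocrine markers), and at day 60 by 0.46 (oligodendrocytes) to 2.12 (erythroid cells). Libraries of day 180 and day 1 did not overlap in this ratio for 6 of the 11 lists, and those of oligodendrocytes, erythroid cells, vessels, pituitary and epithelium, and muscle did. At day 120 libraries did not overlap with those of day 1 for 5 lists, with overlap for neurons, and at day 60 for 1 list, the neuroendocrine one. miR-101-3p is in every ratio and was chosen for its rise. These directions and counts follow in part from that choice and are no separate support. In RPM, libraries lay above those of day 1 without overlap for 0.725%, 3.86% and 0.725% of all miRNAs at days 60, 120 and 180.

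Oligodendrocyte markers, which accompany myelination, had the largest change from day 1 of the brain lists, 0.96, 0.70 and 0.94 on the log2 scale of their sum at the 3 later ages. Most of the sum was miR-338-5p, which averaged 1362, 2676, 2550 and 3024 RPM at the 4 ages, while miR-219 had means of 58.7, 14.9, 12.6 and 15.4 RPM, and 2 of the 3 members lay above day 1 at each later age. Their sum over 3 miRNAs (miR-219 and both arms of miR-338) ran from 417 to 2812 RPM at day 1, 1419 to 4001 at day 60, 552 to 5096 at day 120 and 696 to 7456 at day 180. Against day 1, 0 of 3 were called at any later age, where limma called 3.86%, 3.38% and 3.38% of all 414 miRNAs. Beside such shares, 0 calls in this list or in those below are not a result about their members. The part of oligodendrocyte markers in the rise of miR-101-3p was not tested. Within ages the r of their sum with miR-101-3p was -0.09. The neuron sum over 7 miRNAs ran from 7939 to 52172 RPM at day 1, 16340 to 49100 at day 60, 17596 to 74215 at day 120 and 16650 to 30208 at day 180, with 0 of 7 called. Relative to the neuron sum miR-101-3p was 2.74 higher at day 180 than at day 1, close to the 2.68 of miR-101-3p alone. Most of that sum was miR-128-3p and miR-129-5p, at 11052 and 10431 RPM of a mean sum of 23376 RPM at day 180. The median log2 difference of the 7 members from day 1 was -0.68, 0.07 and -0.46 at the 3 later ages, with 2, 4 and 2 of them above 0. The astrocyte sum over 7 miRNAs ran from 7158 to 12576 RPM at day 180 and from 4418 to 54181 RPM at day 1, with 0 of 6 tested called; within ages its r with miR-101-3p was 0.54. Most of the astrocyte sum was miR-21-5p, which averaged 15842 RPM at day 1 (up to 53370 RPM in 1 library) and 8325 RPM at day 180. The r of miR-21-5p with miR-101-3p within ages was 0.50. The astrocyte list also holds miR-29b-3p, 1 of the 5 most alike, at means of 55.0 and 111 RPM at days 1 and 180. The neuron list holds miR-218.

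Markers of tissues that lie next to the hypothalamus or enter with blood were summed in the same way. The pituitary and epithelium sum (5 miRNAs of the miR-200 family) ran from 92.5 to 178 RPM at day 180 and from 19.1 to 1432 RPM at day 1, and the erythroid sum (4 miRNAs) from 182 to 349 RPM at day 180 and from 90.5 to 1552 RPM at day 1. The muscle sum (5 miRNAs) ran from 336 to 3640 RPM at day 180 and from 263 to 2647 RPM at day 1, and the liver sum (4) from 908 to 1495 RPM at day 180 and from 550 to 1710 RPM at day 1. Of the tested miRNAs in these 4 lists the only call was miR-122 of liver, higher at day 60 than at day 1 (log2 difference 3.78, SE 0.81, limma adjusted p = 0.011). Without replicate 4 of day 60 the difference was 2.97 and the limma adjusted p = 0.0559. Over all 414 miRNAs limma called 3.86% at day 60 (0.725% higher), 3.38% at day 120 and 3.38% at day 180. The choroid plexus and multiciliated sum (11 miRNAs) ran from 2870 to 6490 RPM at day 180 and from 2835 to 8527 RPM at day 1. In that list miR-449a-5p, found in cells with many cilia, was called lower than at day 1 at all 3 later ages. It averaged 19.5 RPM at day 1 and 1.37, 2.72 and 0.686 RPM at the later ages, which is near the floor. Its day-60 call held in 18 of 20 fits with 1 library left out, and its calls at days 120 and 180 in 20. By limma 3.14%, 1.93% and 2.66% of all miRNAs were called lower. The list sum had an r of -0.62 with miR-101-3p within ages. Most of that sum was miR-204-5p, which averaged 3105, 6429, 3780 and 3566 RPM at the 4 ages and had an r of -0.78 within ages. miR-211, 1 of the 5 least alike, is a member, with means of 16.1 to 32.3 RPM. The vessel sum (6) ran from 33164 to 181340 RPM at day 180 and from 30233 to 219343 RPM at day 1. The sum of microglia and immune cells (7) ran from 551 to 3311 RPM at day 180 and from 796 to 4513 RPM at day 1. In either list 0 were called, beside the shares over all miRNAs given above.

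**Figure D5:**
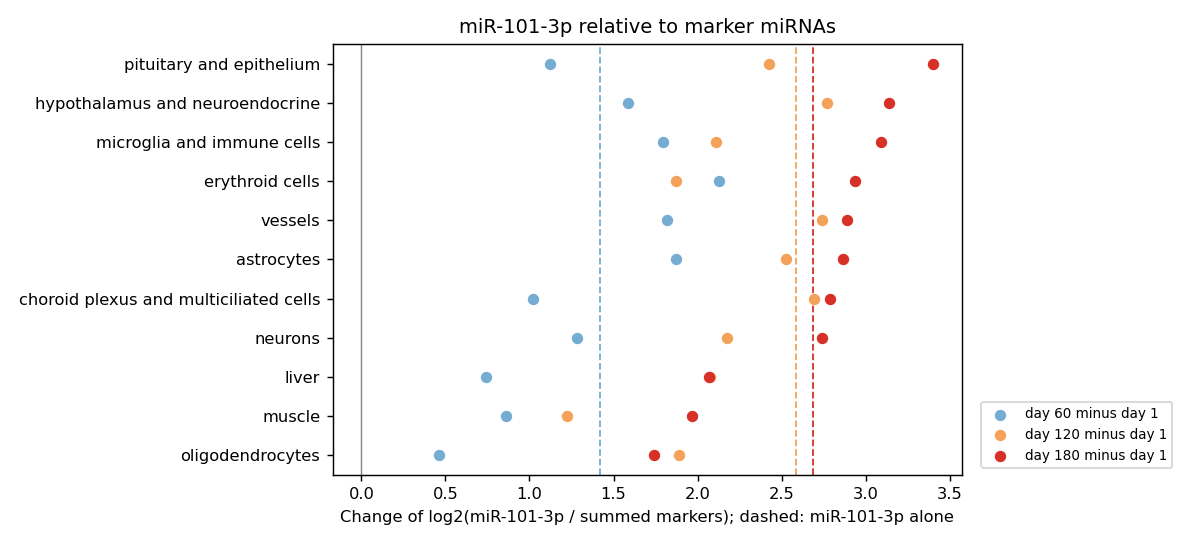
Change from day 1 of the log2 ratio of miR-101-3p to the summed RPM of 11 marker lists (points, means of 5 libraries per age) for days 60, 120 and 180; dashed lines give the change of miR-101-3p alone. All points lie to the right of 0, and the day-180 points run from 1.74 to 3.40. miR-101-3p, chosen for its rise, is in every ratio.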

How the data were processed

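Small RNA libraries were made from total RNA with an NEBNext kit, per the labels' protocols, and Bowtie is named in the submitters' processing notes; no source used here states the build, catalogue or counter. Per the file headers and values, the authors' 1 deposited table is in RPM (its headers say TPM, but values were not divided by length); 1 further column, a row sum, was not used. Whole reads were recovered for 100% of values under 1000 reads, within 0.1 read. Members and lists were chosen with earlier results of these data known. limma 3.58.1 (R 4.3.3; variance trend) was fitted to log2(RPM + 1) of all 20 libraries as 4 age means, for the 414 miRNAs at 1 RPM or more in at least 5 libraries, with Benjamini-Hochberg adjustment at 0.05, and was tested on simulated reads. edgeR 4.0.16 and DESeq2 1.42.0 on recovered reads were alternatives. The animals are separate, per the design text, and no batch is labelled. Replicates of an age never matched within sampling noise (smallest chi-square per degree of freedom 357 over 40 pairs). Named miRNAs were both arms of miR-101 and miR-144, the 5 with the highest and lowest r, the 5 with the highest r within ages, the rank neighbours and list members. No sequence table was used here, so the planned seed search and GC check were not run and no sequence is shown.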

Additional observations from a re-analysis of the deposited data

Results flagged for a closer look

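A library was marked where its gap to the nearest of the other 4 of its age exceeded Dixon's 95% critical value. This was tested on RPM in 104 groups of 5 (26 miRNAs at 4 ages), and 10 were marked. Chance marks about 1 in 20 only for separate groups of normally distributed values. These groups share the same libraries, many of their miRNAs were picked for correlating with miR-101-3p, and RPM values need not be normal. The 10 marks can therefore not be read against that rate. miR-101-3p itself was marked at no age.

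Of the 10, 5 fell in replicate 3 of day 1, the day-1 library with the highest miR-101-3p. Of these 5 miRNAs, 4 were in the tested set because of their high r with miR-101-3p, and let-7c-5p has the lowest r within ages, so that their place in this library partly restates that choice. It held 198 RPM of miR-374a-5p, against 34.2 to 62.7 in the others, 43.3 RPM of miR-148b-5p, against 18.2 to 25.1, and 675 RPM of miR-542-3p, against 68.7 to 192. It also held 350 RPM of miR-136-3p, against 62.4 to 137, and the lowest let-7c-5p, 3406 RPM, against 5622 to 6131. Replicate 2 of day 1, which stood apart, held 68.9 RPM of miR-1306-5p, against 5.43 to 20.6, and 46336 RPM of miR-99a-5p, against 19324 to 22339. Replicate 1 of day 120, the highest in miR-101-3p at that age, held 3185 RPM of miR-218, against 467 to 862, and 237562 RPM of miR-9-5p, against 178048 to 192808. Replicate 2 of day 120 held 1.56 RPM of miR-144-3p, against 0 to 0.449.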

How the results depend on the processing

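The miR-101-3p differences kept their direction under the 8 planned settings run: 1.36 to 1.53 for day 60 minus day 1, 2.47 to 2.63 for day 120 minus day 1, 2.68 to 2.92 for day 180 minus day 1, 1.03 to 1.23 for day 120 minus day 60 and 0.10 to 0.32 for day 180 minus day 120. With 1 library left out the ranges were 1.13 to 1.68, 2.39 to 2.85, 2.36 to 2.95, 0.93 to 1.46 and -0.22 to 0.31. Chosen after seeing the data, the log2 ratio to oligodendrocyte markers gave 0.46 on day 60 and 1.74 on day 180, and that to muscle markers 1.22 on day 120. The spread of miR-101-3p without single libraries was also added after seeing the data. The number of miRNAs called against day 1 (16 on day 60, 14 on day 120, 14 on day 180, with 87, 93 and 86 at an unadjusted p under 0.05) was 40, 36 and 23 with median-of-ratios scaling, 34, 39 and 25 with quantile scaling, 4, 4 and 5 with only the 2 ages compared, 57, 43 and 22 with edgeR, and 86, 74 and 61 with DESeq2. It was 9 on day 60 and 8 on day 180 with no filter, and 7 and 5 on day 180 with a pseudocount of 0.1 and a filter at 10 RPM. With 1 library left out it ran from 2 (replicate 4 of day 60) to 43 (replicate 4 of day 1) on day 60, 7 (replicate 3 of day 120) to 29 (replicate 5 of day 1) on day 120 and 5 (replicate 5 of day 180) to 31 (replicate 5 of day 1) on day 180; the cause was not tested. With the replicate block the counts were 21, 18 and 14. The miR-101-3p differences were 1.42, 2.58 and 2.68, which the block could not change because each replicate number occurs once at each age. A fit of only the 2 ages compared could not change them either. Both are among the 8 planned settings, and neither tests the differences. The replicate numbers do not pair the animals: same-numbered libraries of different ages had correlations of deviations from -0.71 to 0.54, 11 of 30 over 0.1, and 4 of 20 libraries correlated best with their own number. Over those 20 fits let-7c-5p was still called in 5, miR-374a-5p in 9, and miR-3955-3p in 20 on day 120 and 14 on day 180. The GC correction was not run.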
